A study of Mus musculus with 4 samples.

Results

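The genes described here are 32 genes of sterol and fatty acid synthesis, taken by name from the 55403 features of a single-nucleus RNA sequencing table of the mouse hippocampus. They were grouped by role. The mevalonate steps had 8 genes, the steps from squalene to cholesterol 11, the regulators and carriers 7 and fatty acid synthesis 6. All 32 names were found, and each gene passed the filter on low counts in at least 3 of 12 cell classes. In all, 277 pairs of a class and a gene were tested, and 8 genes were tested in every class.

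The study profiled 4 libraries of pooled, frozen hippocampus, with 10000 nuclei loaded for each and a target of about 50000 reads per nucleus. One library came from wild-type mice (WT). A pair of libraries, replicates 1 and 2, came from PS19 mice (PS19Vle, on a B6;C3 background), in which the prion protein gene (Prnp) promoter drives human 1N4R tau (MAPT) with the P301S change. One library came from TG_PS19 mice, which carry the tau transgene and also a SORLA transgene placed in the Rosa26 locus under a CMV and β-actin promoter, which is active in many cell types. SORLA, encoded by SORL1, is a sorting receptor of the endosome. The number, age and sex of the pooled animals are not given in the sources used here, nor is whether the PS19 libraries hold different animals. The spread behind the p-values comes only from this pair of libraries. WT and TG_PS19 have 1 library each.

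Cholesterol is built from acetyl-CoA through mevalonate, the isoprenoid units, squalene and then lanosterol. Fatty acids are built from the same precursor by acetyl-CoA carboxylase and fatty acid synthase, and are then elongated and desaturated. SREBP transcription factors drive both branches. SCAP carries their precursors out of the endoplasmic reticulum when sterols are scarce, and INSIG proteins hold them back when sterols are plentiful. The brain makes its own cholesterol, since the blood-brain barrier keeps plasma lipoproteins out. Oligodendrocytes use it for myelin, and astrocytes supply it to neurons on apolipoprotein E particles.

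Promoter sequence is shown here because the 13 members with lower counts in PS19 astrocytes, described further on, include many known SREBP targets. Windows of the 250 bases before RefSeq's gene start (GRCm38.p6) were found for 26 of the 32 members. Of the 13 astrocyte members, 7 had a window, and the 3 whose window holds no annotated exon base are printed, 5′ to 3′ on the gene's strand, with the motifs searched in capitals. The motifs were TCACNCCA (a sterol regulatory element core), CCAAT (bound by NF-Y) and GGGCGG (a GC box, bound by Sp1), on both strands. Hmgcs1 lies on the plus strand (window chr13:119690101-119690350), Mvd on the minus strand (chr8:122443423-122443672) and Sc5d on the minus strand (chr9:42264301-42264550).
Hmgcs1: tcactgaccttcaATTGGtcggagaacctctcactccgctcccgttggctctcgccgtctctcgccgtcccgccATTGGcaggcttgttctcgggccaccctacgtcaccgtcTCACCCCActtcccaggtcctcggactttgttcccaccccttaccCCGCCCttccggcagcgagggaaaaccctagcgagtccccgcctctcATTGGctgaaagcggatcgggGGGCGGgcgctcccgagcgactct
Mvd: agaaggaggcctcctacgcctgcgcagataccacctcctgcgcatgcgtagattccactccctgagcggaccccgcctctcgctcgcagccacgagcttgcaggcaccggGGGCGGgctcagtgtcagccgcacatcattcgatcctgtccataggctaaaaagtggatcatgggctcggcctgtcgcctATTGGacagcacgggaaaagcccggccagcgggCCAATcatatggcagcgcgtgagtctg
Sc5d: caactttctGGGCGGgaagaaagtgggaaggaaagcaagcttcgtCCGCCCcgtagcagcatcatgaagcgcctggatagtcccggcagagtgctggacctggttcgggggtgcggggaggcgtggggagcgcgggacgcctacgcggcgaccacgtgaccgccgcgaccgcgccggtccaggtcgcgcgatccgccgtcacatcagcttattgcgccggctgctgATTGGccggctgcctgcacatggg

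The Hmgcs1 window held 1 sterol element core, 3 CCAAT boxes and 2 GC boxes. The Mvd window held 2 CCAAT boxes and 1 GC box, and the Sc5d window 1 CCAAT box and 2 GC boxes. Over the 26 members with a window, CCAAT was found in 20, or 76.9%, against 37.5% of 27025 genes with a window and 40.3% of those tested in astrocytes. GGGCGG was found in 20 members, against 35.4% and 61.0%. The sterol element core was found in Hmgcs1, Msmo1 and Srebf2, or 11.5% of members, against 4.20% of all genes. All 7 astrocyte members with a window held a CCAAT and a GC box, and 2 held the sterol element core. Motif matches of this kind are a description of letters in a window, not of binding.

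Before the members are described, the libraries are set against their labels. The human MAPT feature had 0, 333, 461 and 436 UMIs (unique molecular identifiers, 1 per captured RNA molecule) in WT, PS19 replicate 1, PS19 replicate 2 and TG_PS19, and human SORL1 had 2, 7, 0 and 2224. After filtering, 11458, 4467, 4728 and 8963 nuclei were kept in that order. Before filtering, the median depth was 2643 to 3708.5 UMIs per barcode, and 100 of 32048 barcode sequences occurred in more than 1 library. Counts of the 2 PS19 libraries varied beyond sampling noise in all 12 classes (chi-square over its degrees of freedom 1.57 to 2.92). The TG_PS19 library stood apart in sex: 4575 of its nuclei had Xist and no Y-linked UMIs and 2163 the reverse, against 5 to 27 nuclei with Xist alone in the other libraries. One unnamed cluster of 282 nuclei held WT nuclei only. In each of the 12 named classes the class's own marker list was raised, so each class is astrocyte-like, microglia-like and so on by those lists; the suffix is left out below.

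Levels below are UMIs per 1000000 UMIs of the class (CPM), so they compare libraries and classes but not genes of different length. Summed over all kept nuclei, the 32 members stood at 1611 CPM in WT, 1475 and 1335 in the PS19 libraries and 1421 in TG_PS19. Scd2, a stearoyl-CoA desaturase, held 32.6% of the members' UMIs and Acaca, acetyl-CoA carboxylase, 17.6%, so sterol and fatty acid genes were summed separately. Among the 12 tested classes, the 19 sterol enzymes were at their highest in astrocytes in every library, at 906, 615, 519 and 604 CPM in WT, PS19 replicates 1 and 2 and TG_PS19. Of these classes oligodendrocytes came next in every library, at 540, 427, 379 and 443 CPM. Dentate granule neurons stood at 257, 268, 224 and 187 CPM. The exact Poisson 95% intervals of the astrocyte sums, 886 to 927 CPM in WT and 494 to 646 over the PS19 libraries, do not overlap, and they cover counting error only. The TG_PS19 astrocyte sum lay between the PS19 libraries on this scale. The 19 include Ggps1, on a branch that does not lead to cholesterol, which had the most UMIs of them over all nuclei. In the same order of libraries, Ggps1 had 78.6, 80.7, 67.8 and 56.0 CPM in astrocytes, lowest in TG_PS19. Its part in the position of TG_PS19 was not tested. In WT dentate granule neurons Ggps1 held 70.0 of the 257 CPM.

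The order of classes was different for the fatty acid genes. Oligodendrocytes stood first, at 2152, 2011, 1825 and 2176 CPM, then astrocytes at 1176, 1002, 948 and 1132 CPM, then oligodendrocyte precursors at 760 to 793 CPM. By single gene and over the same 12 classes, 11 members had their highest class level in astrocytes in all 4 libraries: Hmgcs1, Mvd, Fdft1, Sqle, Msmo1, Nsdhl, Hsd17b7, Dhcr7, Srebf1, Lpin1 and Fasn. Acaca, Scd1 and Scd2 were highest in oligodendrocytes in all 4. Acly, ATP-citrate lyase, was highest in microglia, Elovl6, a fatty acid elongase, in oligodendrocyte precursors, Insig2 in fibroblasts and Stard4, a sterol carrier, in endothelial cells. For the other 14 the highest class differed between libraries. Classes were clustered on these same counts, so these orders are descriptions and were not tested.

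**Figure D1:**
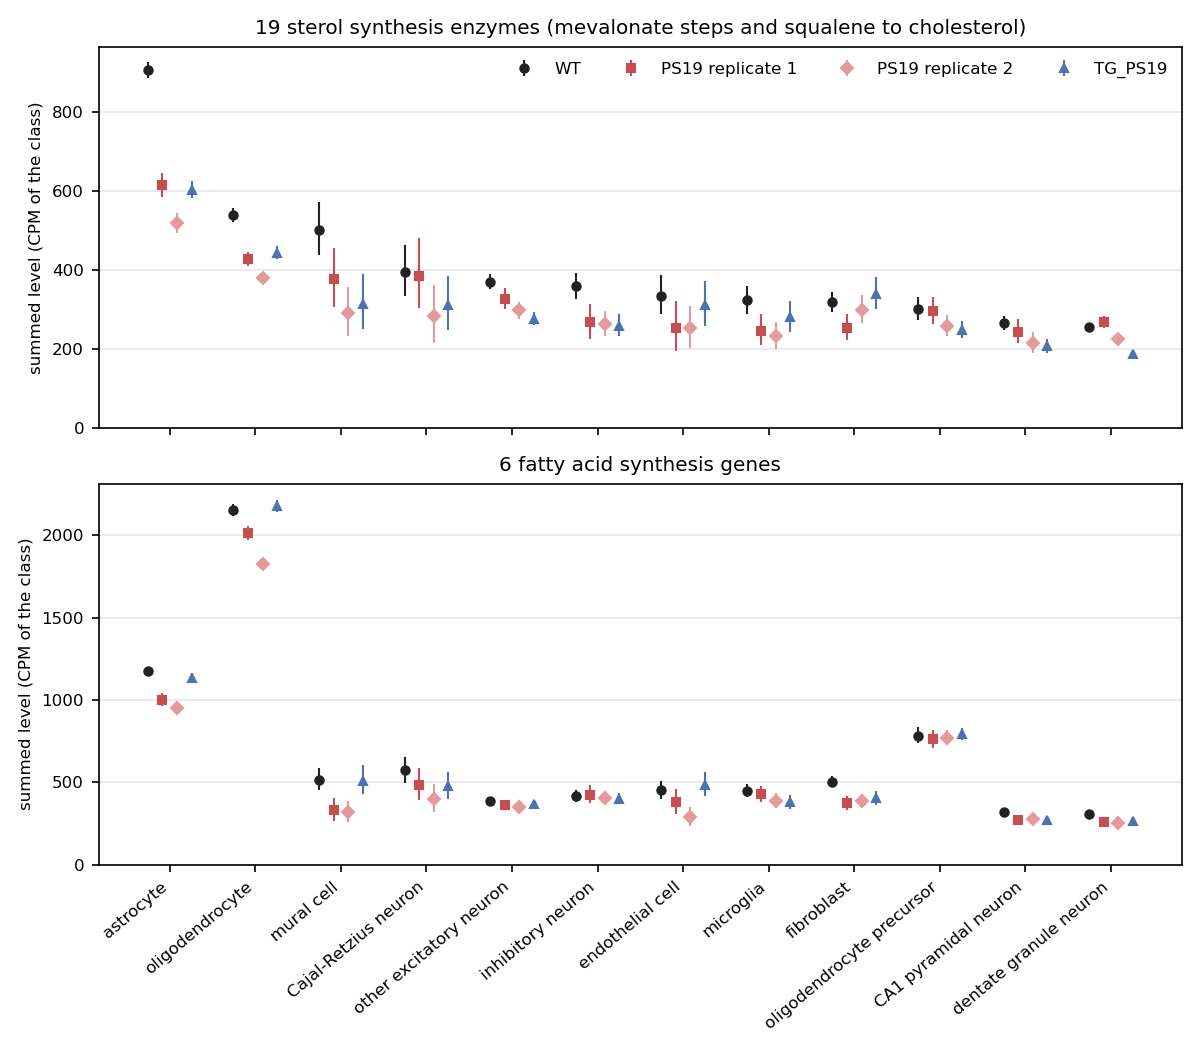
Summed level of the 19 sterol enzymes (one panel) and the 6 fatty acid genes (other panel), in CPM of the class, by cell class and library; points are libraries and bars exact Poisson 95% intervals, which cover counting error only. Astrocytes lead for sterol enzymes (906 CPM in WT against 519 to 615 in PS19) and oligodendrocytes for fatty acid genes (1825 to 2176 CPM).

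Depth per nucleus differed between libraries, so each nucleus was also thinned to 1000 UMIs and the share with at least 1 sterol enzyme UMI was counted. In astrocytes the share was 57.8% (exact 95% interval 55.9 to 59.7) of 2694 nuclei in WT, 42.7% (38.8 to 46.7) of 616 and 38.6% (35.01 to 42.4) of 696 in the PS19 libraries, and 46.7% (44.3 to 49.2) of 1618 in TG_PS19. From 2 to 16 shallower astrocyte nuclei per library were left out, and median depths were 2869, 3688.5, 4508 and 3055 UMIs. Without thinning the astrocyte shares were 86.7%, 82.7%, 84.2% and 78.1%. In dentate granule neurons, which had lower sterol enzyme sums, the thinned shares were 22.3%, 26.3%, 19.3% and 14.5%, at median depths of 6498.5 to 10121 UMIs. The unthinned dentate shares were 78.8%, 84.6%, 86.9% and 75.1%. No class lacks these genes, so no share of pure background could be set beside them. The intervals treat nuclei as independent and are not a test between conditions.

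Genotypes were compared on counts summed per library and class, with edgeR's quasi-likelihood test fitted to all genes of a class and Benjamini-Hochberg adjustment over them. A pair of a class and a gene is called below where the adjusted p is under 0.05, and a log2 fold change of -1 is a fall to 50% of the level. The spread came from the PS19 pair alone, with 1 residual degree of freedom, and the lone WT and TG_PS19 libraries were assumed to vary like it. The fit also draws each gene's spread towards a trend over all genes of the class. A small p therefore does not rest on the PS19 values of that gene alone. For PS19 against WT, 20 of the 277 pairs were called, 19 lower and 1 higher in PS19, against 2.25% of all genes tested over the 12 classes. For TG_PS19 against PS19, 11 pairs were called, 9 higher and 2 lower in TG_PS19, about the same share as the 3.96% of all genes. Over all genes 3830 of these 5794 calls were higher in TG_PS19. For TG_PS19 against WT, 6 pairs were called, all lower in TG_PS19, against 1.72%. The first pair of comparisons share the PS19 libraries, so a gene that is low in PS19 enters both. In all 31 called pairs of those comparisons, which cover 15 members, the WT or TG_PS19 value lay outside both PS19 values. DESeq2 on the same sums called 1 of 224 pairs with an adjusted p for PS19 against WT (0.296% of all such genes) and 3 of 152 for TG_PS19 against PS19 (0.892%). Scd2 in dentate granule neurons was the one pair it called in the first comparison.

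**Figure D2:**
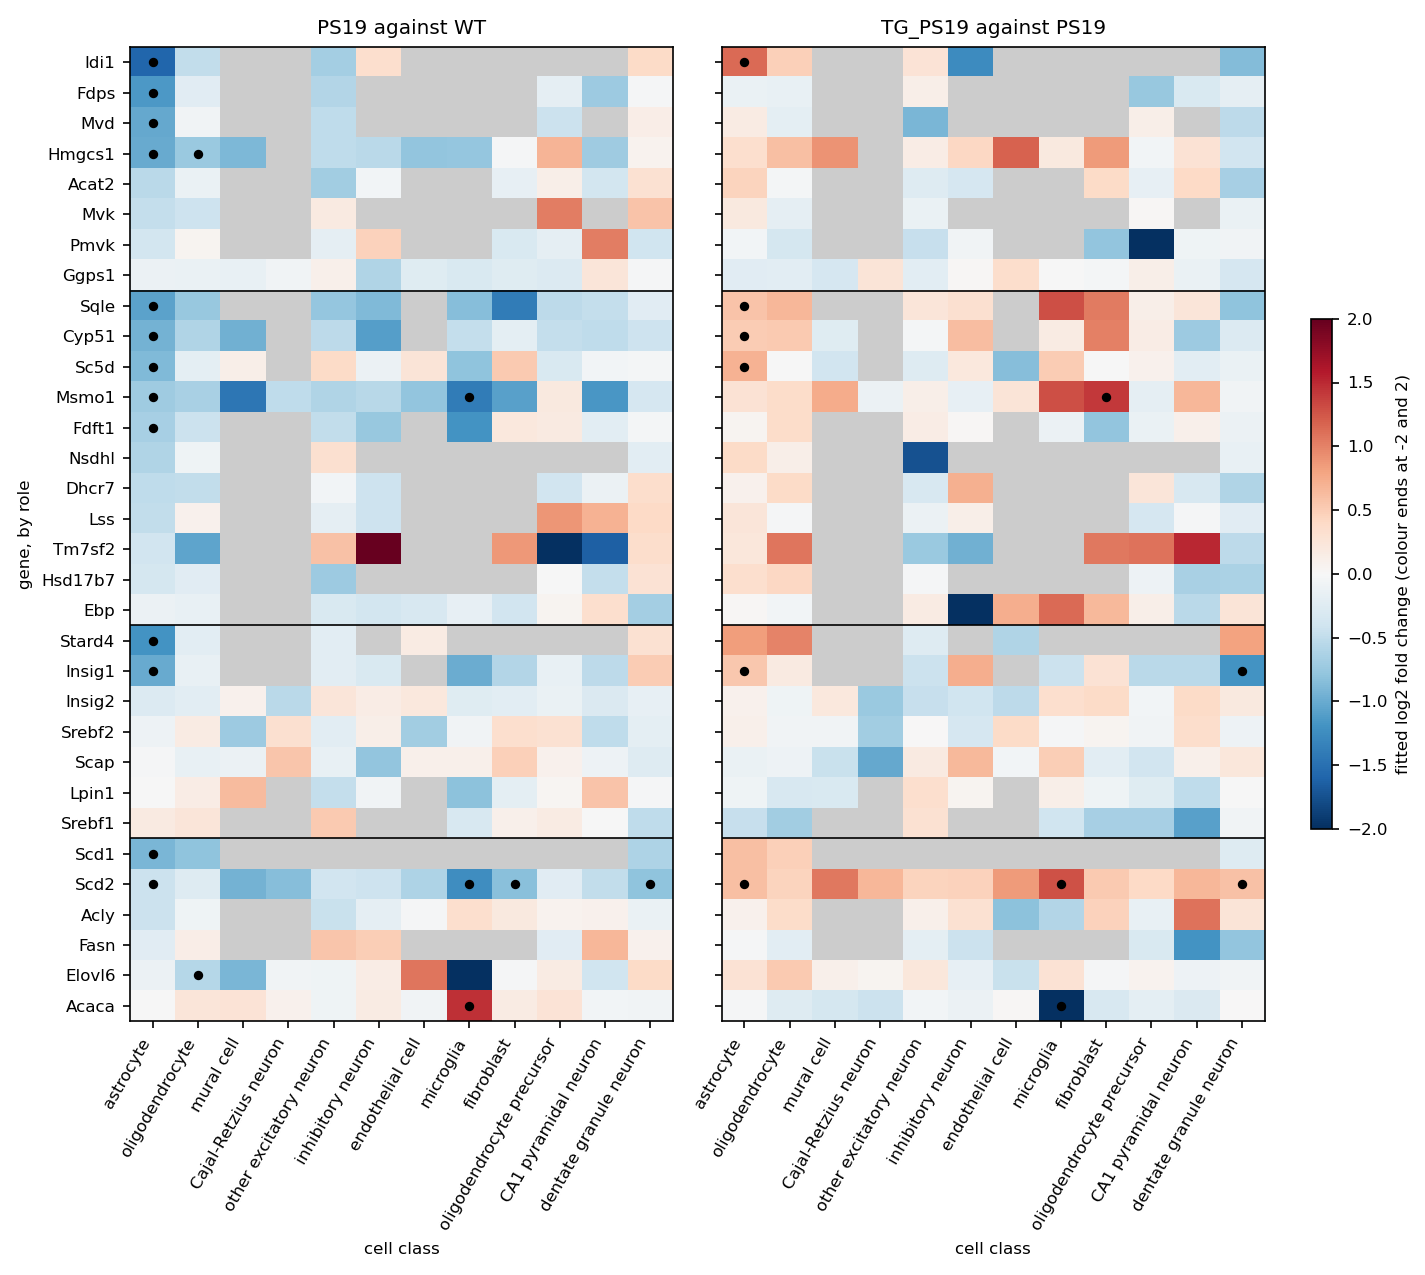
Fitted log2 fold changes of the 32 members (rows, by role) in the 12 classes (columns) for PS19 against WT and for TG_PS19 against PS19; colour gives the fold change, dots mark called pairs and grey marks pairs under the filter on low counts. The 13 called pairs of the astrocyte column in PS19 against WT are all lower in PS19.

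In astrocytes, the summed sterol enzymes were lower in both PS19 libraries than in WT, and 9 of the 19 were called lower one by one. Of the 32 members tested, 13 fell and none rose, against 2.47% of all astrocyte genes called lower. The fitted fold change was below 0 for 31 of 32, with a median of -0.49 on the log2 scale against 0.01 for all genes. The median was -0.77 for the mevalonate steps, of which 4 of 8 fell, and -0.60 for the squalene-to-cholesterol steps, of which 5 of 11 fell. Of the regulators and carriers 2 of 7 fell (median -0.11), and of the fatty acid genes 2 of 6 (median -0.33). All single-gene levels that follow are CPM after TMM scaling, and a statement of 4 values runs from WT over PS19 replicate 1 and replicate 2 to TG_PS19.

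Among the mevalonate genes, Hmgcs1 (HMG-CoA synthase, chr13:119690379-119708260, plus strand) had astrocyte levels of 84.7, 41.7, 42.6 and 53.3. The PS19 values are close to each other and both lie below WT and TG_PS19, with a log2 fold change of PS19 against WT of -1.01 (SE 0.16, adjusted p = 2.8e-08). Idi1 (isopentenyl diphosphate isomerase, chr13:8885501-8892451, plus strand) had 33.4, 14.7, 8.23 and 24.3, a change of -1.59 (SE 0.23, adjusted p = 1.5e-09) and the lowest fold change of the 32. Its PS19 values differ from each other by more than those of Hmgcs1. Fdps, farnesyl diphosphate synthase, had 25.8, 11.1, 12.0 and 10.6, and Mvd, mevalonate diphosphate decarboxylase, 23.4, 11.9, 11.2 and 12.9. Both fell, by 1.15 (adjusted p = 0.00018) and 1.02 (adjusted p = 0.0018). In Fdps and Mvd the TG_PS19 library sat with the PS19 pair, far below WT. Acat2, Mvk, Pmvk and Ggps1 were not called, with fold changes of -0.54, -0.48, -0.36 and -0.12. Ggps1 makes geranylgeranyl diphosphate, on a branch that does not lead to cholesterol, and had 77.6, 77.8, 66.4 and 61.4.

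Past squalene, Sqle (squalene epoxidase, chr15:59315077-59331192, plus strand) had 64.1, 35.3, 26.4 and 45.1 and fell by 1.07 (SE 0.17, adjusted p = 6.2e-08). Cyp51 (lanosterol demethylase, chr5:4081145-4104746, minus strand) had 79.1, 44.0, 38.8 and 58.2 and fell by 0.94 (SE 0.16, adjusted p = 4.3e-07). In both genes the TG_PS19 value lay between WT and the PS19 pair. Msmo1, a sterol methyl oxidase, had 210.3, 152.8, 105.5 and 156.8 and fell by 0.72 (SE 0.14, adjusted p = 1.1e-05). Its PS19 replicate 1 was close to TG_PS19 and well above replicate 2. Sc5d, sterol desaturase, had 52.2, 29.4, 27.6 and 46.2 and fell by 0.88, and Fdft1, squalene synthase, had 80.6, 47.6, 53.2 and 52.6 and fell by 0.67. Lss, Tm7sf2, Nsdhl, Hsd17b7, Ebp and Dhcr7 were not called, with fold changes from -0.60 for Nsdhl to -0.12 for Ebp.

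Of the regulators, Insig1 (chr5:28071363-28078662, plus strand), which retains SCAP in the endoplasmic reticulum and is itself an SREBP target, had 61.5, 34.9, 26.7 and 44.3 and fell by 1.01 (SE 0.17, adjusted p = 5.4e-07). Stard4 had 13.9, 5.56, 6.47 and 10.8 and fell by 1.20. Srebf2, which drives the sterol branch, had 140.0, 134.9, 125.2 and 138.7 and was not called. Scap had 41.8, 50.4, 33.2 and 37.2, and Srebf1 51.8, 72.6, 47.3 and 42.9, with WT between the PS19 values for both. Insig2 had 46.3, 37.7, 38.5 and 40.4, with WT above both PS19 libraries, and was not called. Lpin1, a phosphatidate phosphatase, had 45.7, 45.2, 45.3 and 42.4 and was not called.

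Among the fatty acid genes, Scd2 (chr19:44293674-44306864, plus strand) had 723.8, 567.4, 504.0 and 812.5 in astrocytes. It fell by 0.44 in PS19 (SE 0.13, adjusted p = 0.019), and its TG_PS19 value was the highest of the 4. Scd1, a near copy of Scd2 whose reads may be split uncertainly, had 13.9, 7.14, 7.64 and 11.2 and fell by 0.91 (adjusted p = 0.048). Acaca had 288.3, 274.2, 298.9 and 281.4, with WT between the PS19 values. Fasn (22.5, 21.0, 17.6 and 18.9), Acly (35.3, 29.4, 23.5 and 27.7) and Elovl6 (77.5, 66.3, 76.4 and 88.0) were not called.

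**Figure D3:**
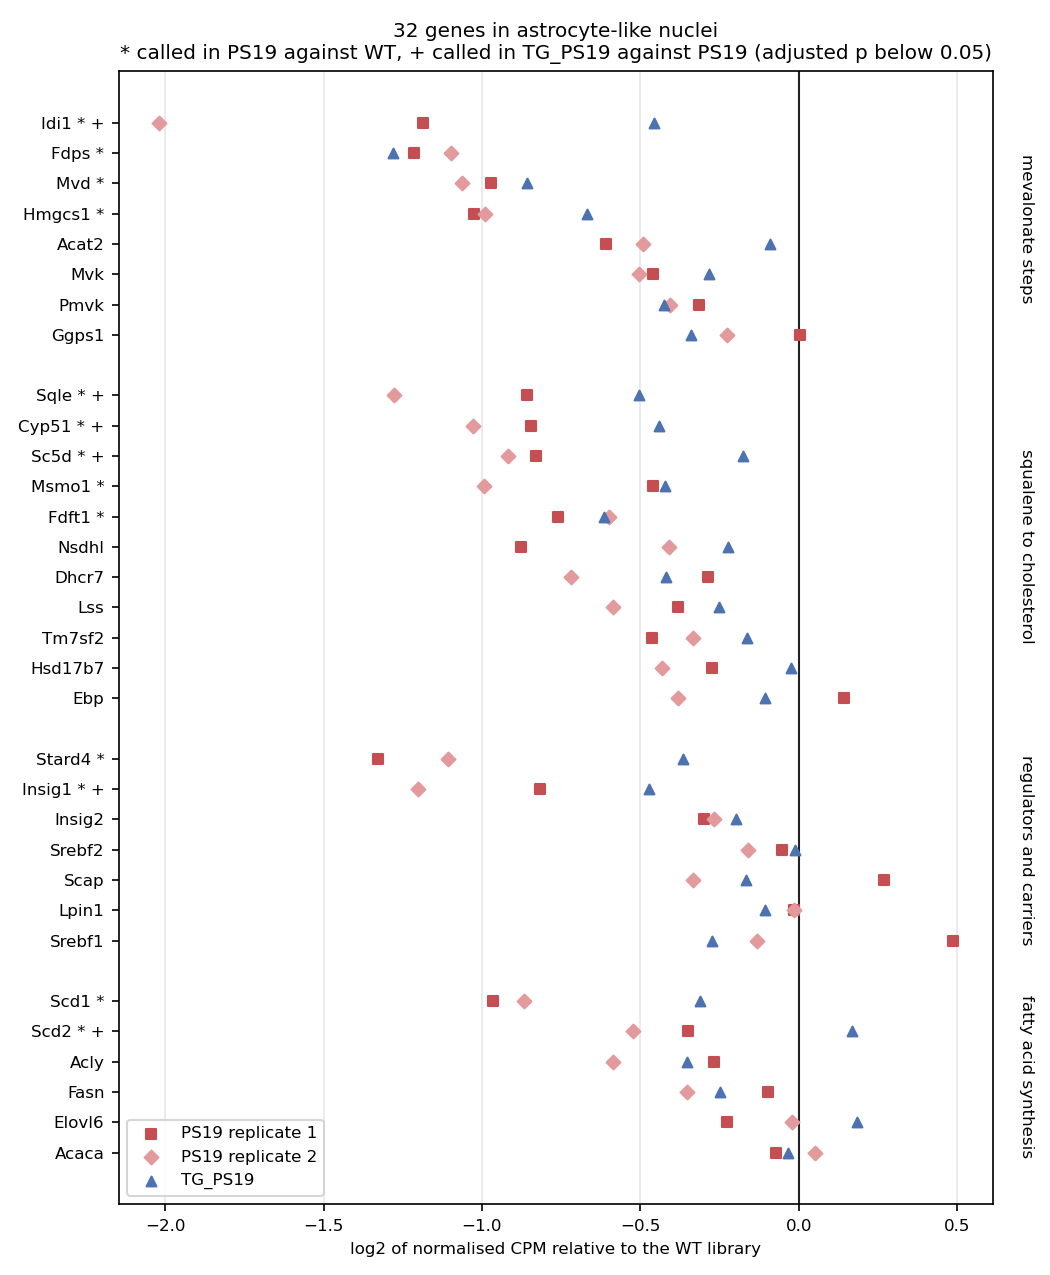
Astrocyte level of each of the 32 members relative to WT (log2 of TMM-scaled CPM over the WT value) in PS19 replicate 1, PS19 replicate 2 and TG_PS19, with genes ordered by role; a star marks a call in PS19 against WT and a plus a call in TG_PS19 against PS19. The 4 called mevalonate genes and 5 called squalene-to-cholesterol genes sit below 0 in both PS19 libraries.

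Against PS19, TG_PS19 astrocytes had 6 members called higher and none lower, where 5.21% of all astrocyte genes were called higher. Idi1 rose by 1.14 (SE 0.26, adjusted p = 0.00035), Sc5d by 0.70 (SE 0.19, adjusted p = 0.0051), Scd2 by 0.60 (SE 0.13, adjusted p = 0.00015), Sqle by 0.57 (SE 0.19, adjusted p = 0.034), Insig1 by 0.54 (SE 0.19, adjusted p = 0.049) and Cyp51 by 0.50 (SE 0.17, adjusted p = 0.045). The median over the 32 was 0.21, with 24 above 0. This depended on scaling. Without TMM, on library totals, the median of all astrocyte genes was -0.18, and the members' median was 0.04, with 17 above 0. Idi1 (0.96) and Scd2 (0.43) were then still called, while Sc5d (0.53, adjusted p = 0.059), Sqle (0.39, adjusted p = 0.19), Insig1 (0.37, adjusted p = 0.23) and Cyp51 (0.33, adjusted p = 0.24) were not. Over all classes TMM gave 66.1% of called genes as higher in TG_PS19, and library totals gave 45.6%. Against WT, TG_PS19 astrocytes had 3 members lower, where 0.593% of all genes were called lower: Fdps by -1.28, Hmgcs1 by -0.67 and Fdft1 by -0.61.

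DESeq2 called none of the 13 astrocyte members for PS19 against WT, with an adjusted p of 0.14 for Hmgcs1, 0.25 for Idi1 and 0.27 for Cyp51, and edgeR gave 17 of the 32 an unadjusted p under 0.05. The log2 fold changes by DESeq2 were alike (-1.01, -1.56 and -0.94). Leaving out a PS19 library leaves no test, and the Idi1 change is then -2.01 (without replicate 1) or -1.18 (without replicate 2). Markers of other cells moved with the same libraries. The summed 8 oligodendrocyte markers in astrocytes stood at 595, 435, 298 and 521 CPM, with none of the 8 at 0. The 5 general neuron markers stood at 90.3, 43.7, 32.7 and 64.6 CPM. The astrocyte marker list itself stood at 12120.5, 11812.8, 11680.6 and 12068.5 CPM. The part of these markers in the result was not tested.

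The make-up of the astrocyte class also differed. Gfap, a marker of reactive astrocytes, had 121, 559, 541 and 109. A cluster led by Gfap and Myoc held 7.87%, 27.7%, 23.8% and 5.20% of astrocyte nuclei, and the largest cluster held 86.5%, 68.1%, 71.2% and 90.2%. Sterol enzyme sums were 935, 669, 552 and 610 CPM in the largest cluster and 833, 534, 469 and 668 CPM in the Gfap and Myoc cluster. Another, small astrocyte cluster led by Adgrv1 (26 to 153 nuclei per library) had 566, 297, 316 and 426 CPM. In all 3 clusters both PS19 libraries were below WT.

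Fitted on the largest cluster alone, 11 members were still called lower in PS19, against 0.997% of all genes: Idi1, Stard4, Fdps, Hmgcs1, Insig1, Mvd, Sqle, Fdft1, Cyp51, Sc5d and Msmo1, from -1.41 for Idi1 to -0.53 for Msmo1. Each of them was among the 13 of the whole class. The Gfap and Myoc cluster alone gave 6 lower of 27 tested, against 1.84%: Cyp51 (-1.41), Sqle (-1.34), Insig1 (-1.30), Hmgcs1 (-1.09), Msmo1 (-0.89) and Scd2 (-0.60). For TG_PS19 against PS19, the largest cluster alone gave Idi1 (0.95) and Scd2 (0.46), against 2.75% of all genes called higher, and the members' median was 0.06. The Gfap and Myoc cluster gave Hmgcs1 (1.51) and Scd2 (0.70), against 1.37%, with a median of 0.37.

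**Figure D4:**
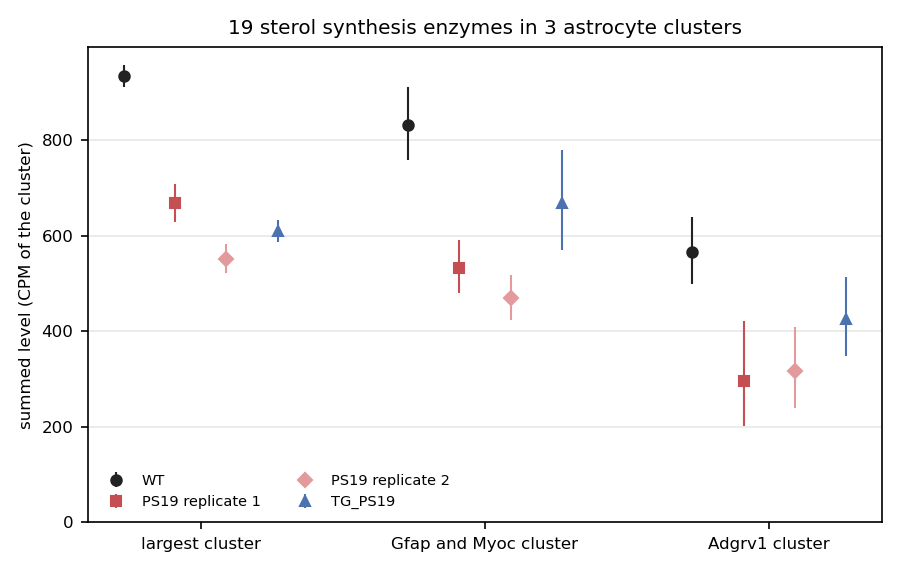
Summed level of the 19 sterol enzymes, Ggps1 among them, in CPM of the cluster, in 3 astrocyte clusters by library. Bars are exact Poisson 95% intervals, which cover counting error only. WT is highest in each cluster (935, 833 and 566 CPM), and TG_PS19 lies between the PS19 libraries in the largest cluster and above both in the other two.

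Oligodendrocytes, which held 48.1% of all UMIs of the 6 fatty acid genes, had 2 members lower in PS19, where 1.33% of all genes were called lower. Hmgcs1 had 41.4, 24.1, 25.6 and 37.8 and fell by 0.73 (SE 0.14, adjusted p = 0.048). Elovl6 had 114.1, 77.8, 75.8 and 110.4 and fell by 0.57 (SE 0.11, adjusted p = 0.048). In both genes WT and TG_PS19 were close to each other and above both PS19 libraries. The 7 astrocyte markers in oligodendrocytes stood at 516, 262, 223 and 395 CPM and the 5 general neuron markers at 115, 44.7, 39.7 and 81.3, with none at 0. Their part in these results was not tested. The median over the 32 was -0.20, and 9 had an unadjusted p under 0.05. Scd2 had 1368, 1254, 1042 and 1559 and Acaca 540, 609, 660 and 530, neither of them called. Msmo1 (77.4, 56.9, 42.5 and 63.9) and Cyp51 (55.1, 37.1, 35.8 and 52.4) were lower in both PS19 libraries and not called. Srebf2 (120.8, 149.8, 121.4 and 129.0), Scap (53.9, 45.4, 51.2 and 45.4) and Ggps1 (80.7, 82.5, 65.7 and 63.4) showed no separation of WT from the PS19 pair beyond its spread. TG_PS19 against PS19 gave no call by edgeR, with 10 of 32 at an unadjusted p under 0.05.

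A cluster with C4b among its leading genes, though ranked after Bfsp2, Il33 and Opalin, held 10.8%, 38.6%, 36.8% and 7.45% of oligodendrocyte nuclei. Without it, 5 members were lower in PS19, against 3.53% of all genes: Scd1 (-0.80), Sqle (-0.73), Msmo1 (-0.57), Cyp51 (-0.52) and Elovl6 (-0.47). Hmgcs1 was not among them. TG_PS19 against PS19 then gave 3 higher, against 4.34%: Sqle (0.72), Elovl6 (0.46) and Scd2 (0.44).

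In microglia the members moved in both directions, in a class where 8.88% of all genes were called for PS19 against WT and 8.71% for TG_PS19 against PS19. Acaca (chr11:84129672-84401651, plus strand) had 77.1, 230.8, 197.2 and 46.1. It rose by 1.46 in PS19 (SE 0.21, adjusted p = 5.8e-10) and was lower in TG_PS19 than in PS19 by a log2 fold change of -2.20 (SE 0.26, adjusted p = 6.7e-15). Scd2 ran the other way, with 298.6, 129.6, 124.3 and 306.9, a fall of 1.23 in PS19 (SE 0.18, adjusted p = 5.1e-10) and a rise of 1.27 in TG_PS19 over PS19 (SE 0.19, adjusted p = 1.4e-09). Msmo1 had 39.03, 14.2, 15.1 and 36.0 and fell by 1.40 (adjusted p = 0.011), on 9 and 12 UMIs in the PS19 libraries. For each of the 3 genes the PS19 values were close to each other with WT and TG_PS19 both above it or both below it. For PS19 against WT, DESeq2 gave an adjusted p of 0.098 for Acaca and 0.080 for Scd2.

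The microglial class was made of different clusters in different libraries. A cluster led by Siglech, a gene of resting microglia, held 91.0% and 92.7% of the microglia of WT and TG_PS19 but 19.6% and 16.7% in PS19. A cluster led by Ly86 held 5.05%, 78.1%, 79.3% and 3.76%. Clec7a, a gene of the disease-associated state, had 5.85, 124.9, 167.1 and 7.20. The oligodendrocyte markers in microglia stood at 1029, 698, 581 and 984 CPM, lower in both PS19 libraries than in WT and TG_PS19, as Scd2 was. Their part in the Scd2 result was not tested.

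Within the Siglech cluster WT had an Acaca level of 76.1 CPM (exact Poisson 95% interval 59.4 to 96.0). The PS19 libraries had 131.9 (72.1 to 221.3) and 108.1 (57.6 to 184.9), and TG_PS19 had 39.3 (25.9 to 57.2). Scd2 there stood at 300.1 (266.0 to 337.4), 169.6 (100.5 to 268.1), 133.1 (76.1 to 216.1) and 278.2 (240.1 to 320.6). In the Ly86 cluster Acaca stood at 249.6 and 214.5 CPM in PS19, with 6 and 4 UMIs in WT and TG_PS19. Fitted on the Siglech cluster alone, with 52 and 49 PS19 nuclei, no member was called by edgeR. The Scd2 fold changes there were -1.03 (adjusted p = 0.23) for PS19 against WT and 1.00 (adjusted p = 0.24) for TG_PS19 against PS19. Those of Acaca were 0.61 and -1.49 (adjusted p = 1.0 and 0.33), and Msmo1 had -1.11 for PS19 against WT. All genes gave 24 calls (0.279%) for PS19 against WT and 30 (0.349%) for TG_PS19 against PS19, and 1 and 2 members had an unadjusted p under 0.05.

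**Figure D5:**
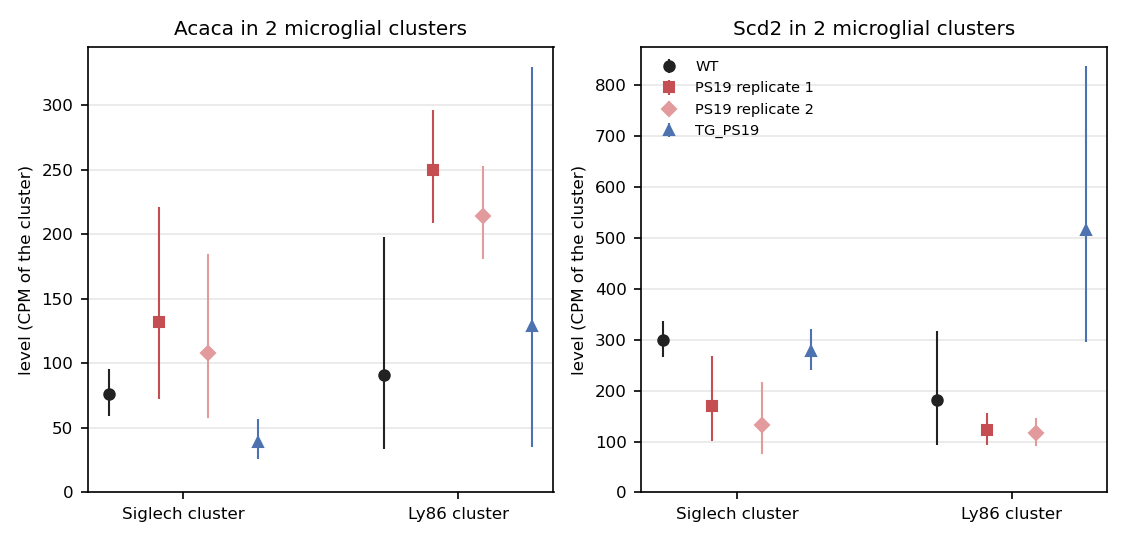
Levels of Acaca and Scd2, in CPM of the cluster, in the Siglech and Ly86 microglial clusters by library, with exact Poisson 95% intervals for counting error only. Acaca is higher in the Ly86 cluster of the PS19 libraries (249.6 and 214.5 CPM) than in the Siglech cluster of any library, and Scd2 in the Siglech cluster is at 300.1 CPM in WT and at 169.6 and 133.1 in PS19.

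In dentate granule neurons, the excitatory neurons of the dentate gyrus, the members' median change in PS19 was -0.04. Scd2 was the 1 member of 32 called, where 2.90% of all genes were. Scd2 had 110.6, 63.8, 62.4 and 94.5. It fell by 0.81 in PS19 (SE 0.11, adjusted p = 6.2e-10) and rose by 0.58 in TG_PS19 over PS19 (SE 0.12, adjusted p = 4.5e-05). For TG_PS19 against PS19, 9.10% of all genes were called. The oligodendrocyte list in the same nuclei stood at 562, 451, 469 and 493 CPM, with none of its 8 genes at 0. Their part in the Scd2 result was not tested.

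Against PS19, TG_PS19 dentate neurons had 25 of 32 members with a fold change below 0 and a median of -0.14. Of the 32, 2 were called, Scd2 and Insig1, a smaller share than the 9.10% of all genes. Insig1 had 7.17, 13.1, 7.91 and 4.49 and was lower in TG_PS19 by a log2 fold change of -1.19 (SE 0.31, adjusted p = 0.0035), with PS19 replicate 2 close to WT. Against WT, Sqle (10.9, 12.9, 6.56 and 5.38) was lower in TG_PS19 by -1.02 and Cyp51 (23.5, 21.0, 14.98 and 14.6) by -0.69. For both genes PS19 replicate 2 was near TG_PS19, and 5.74% of all dentate genes were called in that comparison, about the share of these 2 among the 32. In CA1 pyramidal neurons Cyp51 (32.1, 25.2, 20.03 and 13.6) was lower in TG_PS19 than in WT by -1.23 (adjusted p = 0.023), the 1 member called of 26 tested, where 1.40% of all genes were called.

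In fibroblasts Scd2 had 302.5, 172.2, 166.8 and 242.6 and fell by 0.84 in PS19 (SE 0.17, adjusted p = 0.00023), where 2.32% of all genes were called. The oligodendrocyte list there stood at 915, 704, 662 and 1017 CPM, and its part in the Scd2 result was not tested. Msmo1 had 29.5, 16.0, 11.8 and 37.0 and was higher in TG_PS19 than in PS19 by 1.41 (adjusted p = 0.047), where 1.81% of all genes were called. With TG_PS19 limited to nuclei that had Y-linked UMIs and no Xist, that fold change turned to -0.20 (adjusted p = 0.96). No member was called for PS19 against WT or TG_PS19 against PS19 in the other 7 classes by edgeR, with 0 to 7 members per class at an unadjusted p under 0.05. Over the 12 classes the members' median for PS19 against WT ran from -0.62 in microglia to 0.02 in oligodendrocyte precursors, and the median of all genes from 0.00 to 0.03.

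Whether the astrocyte changes differed from those of another class was tested as an interaction, in 4 pairs of classes and with all shared genes. These fits were added after the data were seen, and every pair holds astrocytes. For PS19 against WT, 8 members differed between astrocytes and dentate neurons, against 4.62% of genes, each with the lower fold change in astrocytes. They were Idi1 (difference of log2 fold changes -1.99), Insig1 (-1.54), Fdps (-1.13), Hmgcs1 (-1.08), Dhcr7 (-0.88), Sqle (-0.86), Sc5d (-0.85) and Fdft1 (-0.64). For TG_PS19 against PS19, 6 differed, against 3.74%, each higher in astrocytes, from 0.76 for Cyp51 to 1.99 for Idi1. Against oligodendrocytes, Idi1 (-1.13), Insig1 (-0.89) and Sc5d (-0.70) had the lower PS19 change in astrocytes, where 5.40% of genes differed. Sc5d (0.70) had the higher TG_PS19 change in astrocytes. It was 1 of 32 members, about the same share as the 3.55% of all genes.

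Against microglia, Acaca differed in both comparisons (-1.49, with 5.77% of genes, and 2.19, with 4.12%), and the PS19 change of Scd2 was smaller in astrocytes by 0.77. Against oligodendrocyte precursors, Hmgcs1 differed for PS19 against WT (-1.71), where 2.11% of genes did. In precursors Hmgcs1 was low, at 10.8, 11.9, 20.8 and 15.3 CPM before TMM scaling, with PS19 replicate 1 close to WT. No member differed there for TG_PS19 against PS19 by edgeR's interaction test, where 2.23% of genes did. Each library enters both classes of a pair, and the fit has a term for every library. Its residual spread again comes from the PS19 pair alone.

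Genes outside the 32 were read from lists for the same pathways. Of 12 other sterol and SREBP genes, tested in 122 pairs of class and gene, 7 pairs were lower in PS19 and none higher, against 2.25% of all genes called. In astrocytes 3 of the 11 tested fell, against 2.47% of all astrocyte genes, and the list's median there was -0.27. For TG_PS19 against PS19 the list had 1 pair higher and 2 lower, against 3.96% of all genes called. Of 22 other fatty acid genes, in 166 pairs, 2 rose and 4 fell in PS19, against 2.25%. In TG_PS19 against PS19, 4 were higher and 3 lower, about the share of all genes called (3.96%). Gpam, an acyltransferase of triglyceride synthesis, had 236, 335, 337 and 254 in astrocytes, with a rise of 0.51 in PS19 and a change of -0.40 in TG_PS19 against PS19.

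Of 10 oxysterol and sterol-ester genes, in 69 pairs, 2 rose and 1 fell in PS19. Soat1, which esterifies cholesterol for storage, had 63.4, 167.6, 149.5 and 70.6 in microglia and rose by 1.31 (SE 0.23, adjusted p = 8.1e-07). In TG_PS19 microglia it was lower than in PS19, by a log2 fold change of -1.16. Of 10 genes listed for sphingolipid synthesis of myelin, in 108 pairs, 2 rose and 1 fell in PS19. All 3 were Aspa, which does not encode a sphingolipid enzyme. Aspa, a leading gene of an oligodendrocyte cluster, rose in other excitatory and inhibitory neurons and fell in dentate granule neurons. In these classes the oligodendrocyte list stood at 238, 424, 282 and 304 CPM, at 341, 419, 380 and 396, and at 562, 451, 469 and 493. Its part in the Aspa result was not tested. Over all genes and classes 2.25% of pairs were called for PS19 against WT and 3.96% for TG_PS19 against PS19, as given above.

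Several members overlap another gene, and whether counting used the strand is not given in the sources used here. Cyp51 overlaps Akap9, Fdft1 overlaps Ctsb, Ggps1 overlaps Arid4b, Srebf1 overlaps Rai1, Acaca overlaps Gm11437 and Mvd overlaps Gm20388, each on the opposite strand. Tm7sf2 overlaps Vps51 and Fdps overlaps Gm43738 on the same strand. Reads of such pairs cannot be told apart here.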

How the data were processed

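Nuclei of pooled frozen hippocampus (WT 1 library, PS19 2, TG_PS19 1) were sequenced by 10x Genomics 3′ chemistry. The deposited files hold raw UMI counts per gene and nucleus; per the submitters' processing notes the authors used Cell Ranger 7.1.0 and GRCm38. Total counts per library were 48670533, 20064025, 26198644 and 38971002 (WT, PS19 replicates 1 and 2, TG_PS19).

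Nuclei were kept from 500 UMIs and 300 genes upwards, with mitochondrial UMIs of no more than 5%. Predicted doublets, at an assumed rate of 0.8% per 1000 nuclei, were removed (10.2%, 3.70%, 3.94% and 7.78%). Nuclei were clustered (2000 variable genes, 30 components, 15 neighbours, Leiden resolution 1.0, leidenalg 0.10.2) into 35 clusters. Clusters were named from 18 marker lists, by a scoring rule set after the clusters were seen. A list was given where at least 4 of its markers, or at least 3 and 50%, were raised by a log2 fold of 1 (pseudocount 10 CPM) with detection in 10% of nuclei, and 2 clusters stayed unnamed. The 12 classes with at least 50 nuclei in every library were tested.

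Counts were summed per class and library and tested with edgeR 4.0.16 (TMM, filterByExpr, quasi-likelihood, two-sided, R 4.3.3), all 4 libraries in 1 fit per class. Interactions used the sums of both classes in 1 fit. DESeq2 1.42.0 was an alternative. The script was tested on simulated counts. Alternatives were the scaling, the low-count filter, the test, the prior, each PS19 library left out, doublets kept, resolution 2.0, thinned sums and Y-linked TG_PS19 nuclei. Single-cluster fits and interaction fits were added after the data were seen. Values in every library are given for the 30 called pairs with the smallest p, and for the 2 members of each role with most UMIs in the class with most nuclei. Others were chosen after their values were seen. Values of some genes outside the 32 are not reported here. The members and lists were chosen with earlier results of these data known. Gene positions are from GENCODE vM21 (GRCm38), matched by gene ID for all 32 members, 30 in the same ID version.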

Additional observations from a re-analysis of the deposited data

Results flagged for a closer look

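The results here are members whose genotype effect differed between 2 classes by edgeR's interaction test, adjusted over all genes shared by the classes. Each value is the log2 fold change in astrocytes minus that in the other class. The interaction fits were added after the data were seen. Against dentate granule neurons, the PS19 against WT effect differed by -1.99 for Idi1, -1.54 for Insig1, -1.13 for Fdps, -1.08 for Hmgcs1, -0.883 for Dhcr7, -0.863 for Sqle, -0.848 for Sc5d and -0.645 for Fdft1. Dhcr7 was not called in either class on its own. Over all genes 4.62% differed between these classes for PS19 against WT, and 3.74% for TG_PS19 against PS19. The TG_PS19 against PS19 effect differed by 1.99 for Idi1, 1.71 for Insig1, 1.35 for Sqle, 1.11 for Acat2, 0.828 for Sc5d and 0.763 for Cyp51. Acat2 was not called for TG_PS19 against PS19 in either class on its own. The comparisons share the PS19 libraries. Against oligodendrocytes, the PS19 effect differed by -1.13 for Idi1, -0.886 for Insig1 and -0.704 for Sc5d, and the TG_PS19 effect by 0.698 for Sc5d. All genes gave 5.40% and 3.55% there, and the 1 of 32 members for the TG_PS19 effect was about that share. Against microglia, the PS19 effect differed by -1.49 for Acaca and 0.773 for Scd2, and the TG_PS19 effect by 2.19 for Acaca. Of all genes 5.77% and 4.12% differed, where 18 members were tested in microglia. Against oligodendrocyte precursors, the PS19 effect of Hmgcs1 differed by -1.71, where 2.11% of all genes did. In precursors the Hmgcs1 level of PS19 replicate 1 was close to WT. Groups here have 1 or 2 libraries, too few to look for a sample far from the others.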

How the results depend on the processing

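No paired analysis was possible because the groups compared share fewer than 2 replicate numbers. The 20 called pairs for PS19 against WT were 1 with DESeq2 and 17 to 28 otherwise. The 11 for TG_PS19 against PS19 were 17 on library totals, 17 with a robust prior, 19 with doublets kept, 18 at resolution 2.0 and 3 with DESeq2. The 6 for TG_PS19 against WT were 12 on library totals, 0 with DESeq2 (of 165 with an adjusted p; 25 had an unadjusted p under 0.05 by edgeR) and 1 with Y-linked TG_PS19 nuclei only. The causes were not tested. The astrocyte median for PS19 against WT (-0.49) was -0.51 to -0.42 with a PS19 library left out, -0.39 on thinned sums, -0.37 in the largest cluster and -0.30 in the Gfap and Myoc cluster. That for TG_PS19 against PS19 (0.21) was 0.14 to 0.23 with a PS19 library left out, 0.0403 on library totals, 0.0647 with genes of at least 20 CPM, 0.0625 in the largest cluster and 0.37 in the Gfap and Myoc cluster. Of the 30 named pairs, 23 lost the call with DESeq2 (3 more had no adjusted p there), 14 on thinned sums, 5 on library totals, 3 with no filter, 2 with a robust prior, 2 with genes of at least 20 CPM, and 1 each with doublets kept and at resolution 2.0. Relative log expression scaling lost none. Leaving out a PS19 library, which leaves no test, reversed none and moved 7 pairs each time by more than 1 SE of the fold change. With Y-linked TG_PS19 nuclei only, 1 of 10 TG_PS19 against PS19 pairs reversed (Msmo1 in fibroblasts, to -0.20) and 3 lost the call: Sqle in astrocytes (0.56), and Scd2 (0.36) and Insig1 (-1.41) in dentate neurons. With doublets kept, 25 of 192 summed levels left their interval (0.948 to 1.65 times), and at resolution 2.0 6 did (0.810 to 1.01 times). With 1 residual degree of freedom, depth and the number of libraries limit every call.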

Other observations

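The unnamed cluster of 282 nuclei, all from WT and led by Sntb1 and Fabp7, had 1313 CPM of sterol enzymes (exact Poisson 95% interval 1232 to 1397) and 4510 CPM of all members, above the WT astrocyte sum of 906 CPM for the enzymes. It entered no comparison, and with nuclei of 1 library it may be that library and not a cell type. The other unnamed cluster, with Ttr and Xist among its leading genes and a median of 996 UMIs per nucleus, held 114, 11, 9 and 652 nuclei of WT, PS19 replicates 1 and 2 and TG_PS19. Its sterol enzymes stood at 558 CPM in WT and 626 CPM in TG_PS19, and at 439 and 419 CPM in PS19 on 15 and 18 UMIs. In ependymal cells, a class too small to test, the sterol enzymes stood at 505 CPM (415 to 608) in WT. The PS19 libraries had 311 (215 to 434) and 286 (206 to 386), and TG_PS19 had 235 (128 to 394), on 14 to 111 UMIs. This class joined a pair of clusters whose shares differed by library. One had 3 of 6 ependymal markers raised and held 63, 11, 24 and 4 nuclei, in the same order of libraries. The other had 6 of 6 raised and held 4, 26, 11 and 16 nuclei. The ependymal levels thus compare different mixes of these clusters, and the part of this make-up was not tested. Committed oligodendrocyte precursors had 413, 570, 303 and 338 CPM, on 12 to 66 UMIs, in the order WT, PS19 replicates 1 and 2, TG_PS19.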
